A study of Ovis aries with 24 samples.

Results

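P-selectin (SELP) and intercellular adhesion molecule 1 (ICAM1), 2 receptors by which endothelium holds passing leukocytes, and the transcription factor interferon regulatory factor 1 (IRF1) were followed in 2 sheep vessels, the ductus arteriosus and the ascending aorta. These 3 genes, of 662 that could be named on the array, were chosen by measured values of these same arrays, the signal in the newborn ductus, and are represented by 4 of the 15008 probes: 2 for SELP (A_70_P039516 and A_70_P039517), 1 for ICAM1 (A_70_P030136) and 1 for IRF1 (A_70_P050981). Their levels and differences are therefore given as a description, with no test. The ductus arteriosus lets fetal blood pass from the pulmonary artery into the aorta and shuts once the lungs are in use. RNA of both vessels came from preterm fetuses (97 days of gestation), near-term fetuses (136 days) and newborn lambs (12 hours after birth), with term at 145 days and no treatment named for any group. Each of the 6 groups held 4 samples from 4 animals, 1 sample per single-colour array, and a level below is the log2 signal minus the 75th percentile of its array.

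P-selectin is kept in the storage granules of endothelial cells, the Weibel-Palade bodies, and in the granules of platelets. At the cell surface it binds a sugar-bearing ligand of leukocytes and lets them roll. ICAM-1 binds leukocyte integrins and holds rolling cells firmly, a step that VCAM-1 serves in parallel. IRF1 is a transcription factor that interferon gamma and inflammatory cytokines are known to induce in human cells, and NF-kB is known to act on the promoters of human ICAM1 and IRF1.

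Between 66.2% and 94.4% of the spots of an array were well above background, and the number of arrays limits the precision. Each stage was hybridised on a slide of its own, with ductus and aorta in separate columns, so a stage cannot be told apart from its slide or a vessel from its column. Arrays also differed in the detection limit of their spike-in controls, a quality value in the file headers: 12 arrays had a limit above 1.5 and 12 under it, and all 4 newborn ductus arrays were among the latter. The main axis of variation between arrays (first principal component, 65.7% of the variance) followed this limit, with an absolute correlation of 0.959. A difference of the newborn ductus from another group can therefore hold a part of this difference between arrays. In whole vessel pieces, fewer cells of a type and less RNA per cell cannot be told apart. Of the marker genes of endothelium, KDR, FLT1, TEK, TIE1 and NOS3 could be measured, while PECAM1, VWF and CDH5 were not named on the array. The smooth muscle marker CNN1, which encodes calponin, was above background on all arrays.

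SELP had its highest level in the newborn ductus, well above the fetal vessels and the newborn aorta. With probe 1 (A_70_P039516) the newborn ductus arrays (replicates 1 to 4) had levels of −0.12, −1.97, −0.11 and −0.12. The newborn aorta arrays had levels of −2.95, −3.98, −2.72 and −3.39, and the near-term ductus arrays −3.04, −4.14, −3.02 and −4.19. All 4 newborn ductus arrays lay above each of the other 20 arrays, of which the highest was at −2.72. The share of all probes whose newborn ductus arrays stand apart in this way was not counted. The genes were chosen by these values, so a lack of overlap, here or below, is not read as a result about them. Replicate 2 stood 3.61-fold under the mean of its 3 companions (log2 gap 1.85), which themselves lay within 0.01 of each other on the log2 scale. Probe 2 gave 0.18, −2.33, −0.05 and 0.20 in the newborn ductus and −2.59, −3.92, −2.92 and −2.71 in the newborn aorta. Near-term ductus arrays had −3.61, −4.14, −3.45 and −3.65 with this probe. The newborn ductus again lay above the other 20 arrays and its replicate 2 again lay lowest, 5.43-fold under the other 3. Probe 1 was well above background on all 24 arrays and probe 2 on 22, missing on preterm aorta replicate 3 and near-term aorta replicate 3.

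ICAM1 was likewise highest in the newborn ductus. The newborn ductus arrays had levels of 1.42, 0.09, 0.97 and 0.93, against −1.48, −1.68, −1.75 and −0.60 in the newborn aorta. The near-term ductus arrays had −0.99, −1.96, −1.36 and −2.17. No newborn ductus array came as low as the highest of the other 20, newborn aorta replicate 4 at −0.60. Replicate 2 was the lowest of the newborn ductus here too, 2.03-fold under the mean of the other 3. The probe was well above background on all 24 arrays.

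IRF1 was highest in the newborn ductus as well, but its arrays overlapped those of other groups. Its newborn ductus levels were −0.79, −2.04, −1.26 and −1.21. In the newborn aorta they were −3.45, −4.37, −2.57 and −1.89, and in the near-term ductus −1.84, −3.67, −2.26 and −4.16. Only 3 of the 4 newborn ductus arrays lay above all 20 others. Replicate 2, 1.93-fold under the mean of the other 3, fell below near-term ductus replicate 1, newborn aorta replicate 4 and near-term aorta replicate 3 (−2.03). The probe was well above background on all 24 arrays.

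**Figure D1:**
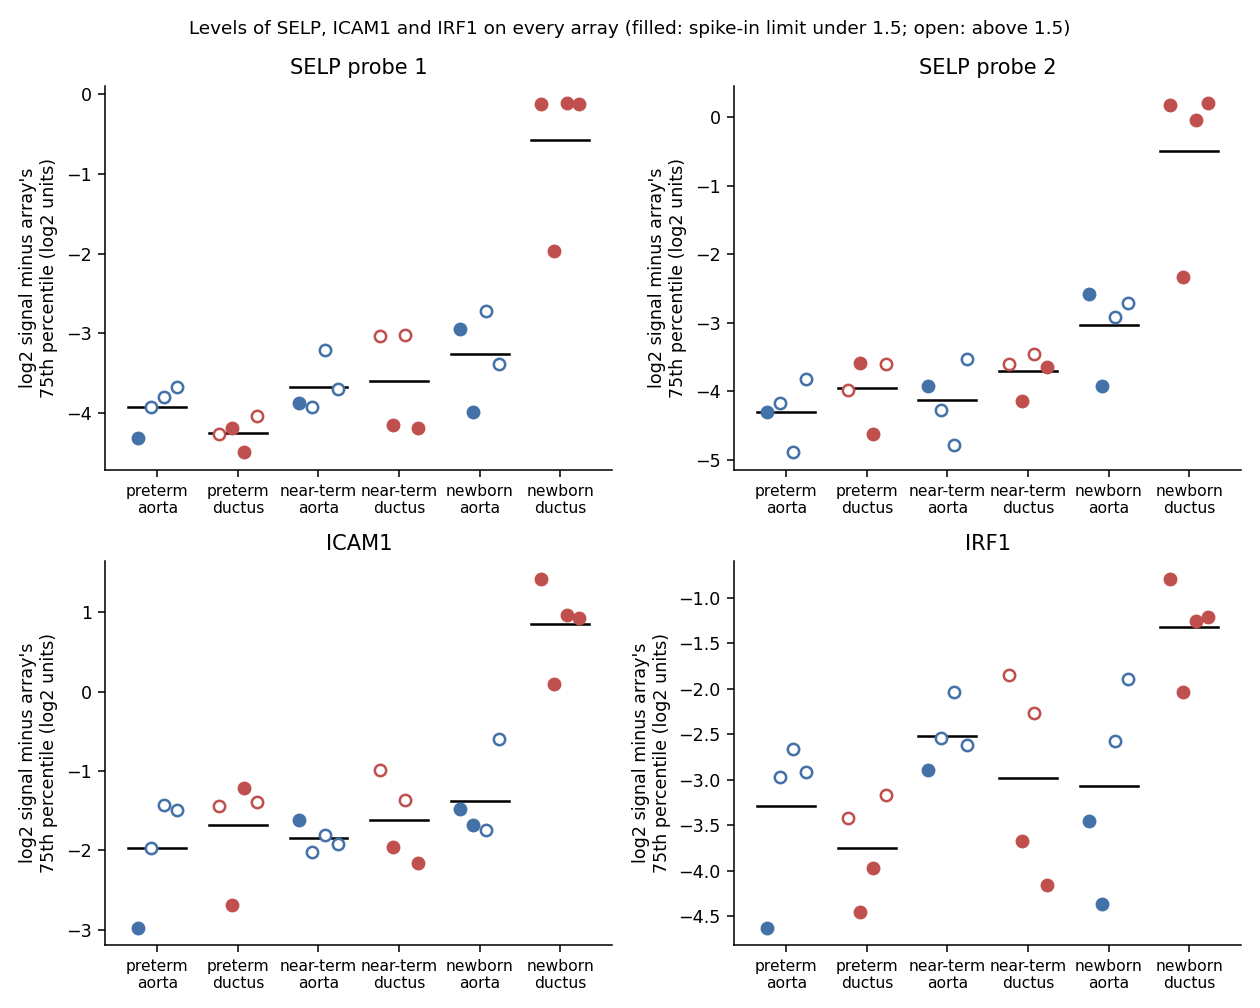
Level of each probe on every array (y axis, log2 signal minus the array's 75th percentile) in the 6 groups (x axis, blue aorta, red ductus), each point an array in the order of replicates 1 to 4 and each bar the group mean, filled where the spike-in detection limit was under 1.5 and open where above. The newborn ductus of SELP and ICAM1 lies above the other 20 arrays, while its replicate 2 is the lowest point of that group in all 4 panels and overlaps other groups for IRF1.

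Set in order by group mean, SELP probe 1 ran from −4.24 ± 0.19 (SD, n = 4 in each group) in the preterm ductus through −3.93 ± 0.28 in the preterm aorta, −3.67 ± 0.32 in the near-term aorta, −3.60 ± 0.66 in the near-term ductus and −3.26 ± 0.56 in the newborn aorta to −0.58 ± 0.93 in the newborn ductus. The arrays of neighbours in this order overlapped up to the newborn aorta, and the 1 gap without overlap lay between the newborn aorta and the newborn ductus. Probe 2 gave −3.03 ± 0.61 and −0.50 ± 1.23 in the newborn aorta and ductus and −4.30 ± 0.44 to −3.71 ± 0.30 in the 4 fetal groups. ICAM1 was at −1.97 ± 0.72 in the preterm aorta, −1.84 ± 0.18 in the near-term aorta, −1.68 ± 0.68 in the preterm ductus, −1.62 ± 0.54 in the near-term ductus, −1.38 ± 0.53 in the newborn aorta and 0.85 ± 0.56 in the newborn ductus. The arrays of neighbours among its first 5 groups again overlapped. IRF1 ran from −3.75 ± 0.58 in the preterm ductus through −3.29 ± 0.90, −3.07 ± 1.08, −2.98 ± 1.11 and −2.52 ± 0.36 (preterm aorta, newborn aorta, near-term ductus and near-term aorta) to −1.32 ± 0.52 in the newborn ductus. For IRF1 the arrays of all neighbours in the order overlapped, the newborn ductus and the near-term aorta included.

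Ductus and aorta were compared at each stage to see which transcripts separate the closing vessel from its neighbour. In the newborn, SELP was 6.42-fold higher in the ductus with probe 1 (log2 difference 2.68 ± 0.38 SE) and 5.79-fold higher with probe 2 (2.53 ± 0.46). ICAM1 was 4.70-fold higher (2.23 ± 0.39) and IRF1 3.35-fold higher (1.74 ± 0.55). The 4 ductus arrays lay above the 4 aorta arrays for both SELP probes and for ICAM1, but not for IRF1. Each of the 4 probes was among the probes called at an adjusted p of 0.05, where 10.1% of the 13997 tested probes were called and 5.15% were called as higher. Since the genes were chosen on this contrast, nothing is read from these calls or from the lack of overlap. The call of IRF1 lay at the threshold and ended when any 1 of 6 of the 8 newborn arrays was left out (all but newborn aorta replicate 4 and newborn ductus replicate 2), with differences of 1.31 to 2.14 over all 8. Without newborn ductus replicate 2 the differences were 3.14 ± 0.31 and 3.14 ± 0.35 for the SELP probes, 2.49 ± 0.40 for ICAM1 and 1.98 ± 0.59 for IRF1. With normexp background correction, which shrinks differences of dim spots, the SELP probes were 3.63- and 3.43-fold higher and IRF1 2.16-fold.

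In the fetus the differences were small beside their errors. In preterm vessels the ductus minus aorta difference of SELP was −0.32 ± 0.38 with probe 1 and 0.35 ± 0.46 with probe 2, opposite in sign. ICAM1 differed by 0.28 ± 0.39 and IRF1 by −0.46 ± 0.55. Near term the differences were 0.08 ± 0.38 and 0.42 ± 0.46 for the SELP probes, 0.22 ± 0.39 for ICAM1 and −0.46 ± 0.55 for IRF1. The arrays of both vessels overlapped for every probe at both stages. None of the 4 probes was called, at either stage, where 0.707% of tested probes were called in the preterm and 1.15% in the near-term vessels.

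The change from near term to 12 hours after birth was compared within each vessel. In the newborn ductus SELP was 8.11-fold higher than near term with probe 1 (3.02 ± 0.38) and 9.26-fold higher with probe 2 (3.21 ± 0.46), with no overlap of arrays. ICAM1 was 5.56-fold higher (2.47 ± 0.39), again with no overlap. IRF1 differed by 1.66 ± 0.55, or 3.16-fold, with overlapping arrays. Both SELP probes and ICAM1 were called and IRF1 was not, against 10.8% of all tested probes called and 4.37% called as higher, a contrast that the choice of genes used. With normexp the SELP probes were 2.99- and 3.28-fold higher (1.58 and 1.72) and IRF1 1.45-fold (0.54). IRF1 was called in 6 of 11 alternatives, among them quantile normalisation (1.77), median centring (1.97), the detection limit as a term (2.34) and arrays with a limit under 1.5 (2.59), so its side of the threshold turned with the processing. Without newborn ductus replicate 2, SELP probe 2 was 14.1-fold higher (3.82).

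In the aorta over the same interval, SELP differed by 0.41 ± 0.38 with probe 1 and by 1.10 ± 0.46 with probe 2. ICAM1 differed by 0.46 ± 0.39 and IRF1 by −0.55 ± 0.55. None of the 4 probes was called, where 6.44% of tested probes were, and the arrays overlapped for each. The near-term aorta arrays behind this were at −3.87, −3.92, −3.21 and −3.69 for SELP probe 1. For ICAM1 they were at −1.61, −2.02, −1.81 and −1.93, and for IRF1 at −2.89, −2.54, −2.03 and −2.62. The fold of SELP in the aorta thus depended on the probe (1.33 and 2.14), and the difference of probe 2 on the processing, with 0.15 under normexp and 1.83 under quantile normalisation.

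The difference between the vessels in this change was positive for all 4 probes, but its error was large. It was 2.61 ± 0.54 for SELP probe 1 and 2.12 ± 0.65 for probe 2, 2.01 ± 0.55 for ICAM1 and 2.20 ± 0.78 for IRF1. SELP probe 1 was called, where 0.393% of tested probes were called and 0.343% in this direction. The other 3 probes were not called. The newborn ductus values by which the genes were chosen enter this difference, so nothing is read from these calls. The call of SELP probe 1 ended with normexp (1.70), with quantile normalisation (2.43), with the 4 groups fitted alone, and with any 1 of 10 of the 16 arrays left out. With the detection limit as a term ICAM1 (2.16) and IRF1 (2.55) were called, and IRF1 also on arrays with a limit under 1.5 (3.61). SELP probe 2 was called without newborn ductus replicate 2 (2.73) and with the replicate block (2.12 ± 0.37). This difference, the vessel contrast in the newborn and the change at birth in the ductus share the same 4 newborn ductus arrays.

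Between the fetal stages all differences of the 3 genes were under 1 on the log2 scale. In the ductus, near term minus preterm, SELP differed by 0.65 ± 0.38 with probe 1 and 0.24 ± 0.46 with probe 2, ICAM1 by 0.06 ± 0.39 and IRF1 by 0.77 ± 0.55. In the aorta the differences were 0.25 ± 0.38, 0.17 ± 0.46, 0.13 ± 0.39 and 0.77 ± 0.55 in the same order. Arrays of the 2 stages overlapped for all 4 probes in both vessels. None was called, where 0.314% of tested probes were called in the ductus and 0.493% in the aorta. With array weights SELP probe 1 and IRF1 were called in the ductus, 1 of 12 alternatives for each.

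**Figure D2:**
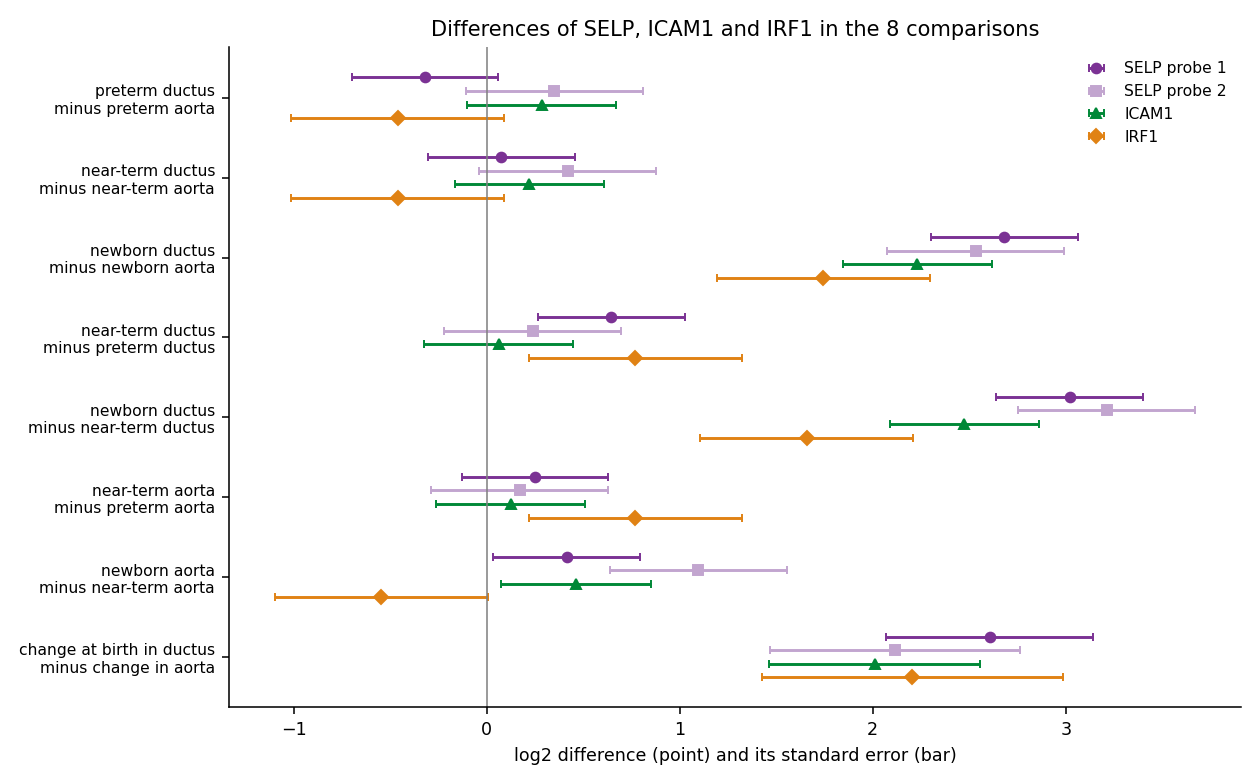
Log2 difference (point) and its standard error (bar) of each probe in the 8 comparisons. The points of the newborn vessel contrast, of the change at birth in the ductus and of the difference between the vessels in that change lie between 1.66 and 3.21, and those of the other comparisons between −0.55 and 1.10.

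The level of IRF1 moved with the detection limit of the arrays. On arrays with a limit under 1.5 it was at −4.37 and −3.45 in the newborn aorta and at −4.16 and −3.67 in the near-term ductus. On arrays with a limit above 1.5 it was at −2.57 and −1.89 in the newborn aorta and at −2.26 and −1.84 in the near-term ductus. The higher values of both groups were thus those of the arrays with the higher limit. Preterm ductus arrays split in the same way, at −4.45 and −3.96 against −3.42 and −3.16. Among arrays with a limit under 1.5, the newborn ductus (−2.04 to −0.79) did not overlap the newborn aorta or the near-term ductus. The differences on those arrays alone were 2.58 ± 0.38 (5.99-fold) against the newborn aorta and 2.59 ± 0.38 (6.02-fold) against the near-term ductus. No newborn ductus array had a limit above 1.5, so no value exists for that class. For SELP the same restriction gave 2.89 ± 0.53 and 3.59 ± 0.53 with probe 1, and for ICAM1 2.44 ± 0.44 and 2.92 ± 0.44.

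The place of a probe in the ordering of all probes of its own array, from the dimmest at 0 to the brightest at 100, does not depend on how arrays are scaled to each other. It can still differ with the detection limit. In the near-term ductus IRF1 stood at 40.7 and 37.7 on arrays with a limit under 1.5 and at 48.3 and 45.4 above it. SELP probe 1 in the near-term aorta went the other way, at 36.6 under 1.5 and 24.8 to 32.7 above it. By this measure IRF1 stood at the 54.5 to 66.6 percentile in the newborn ductus and at the 32.3 to 48.3 percentile on the other 20 arrays. The newborn ductus did not overlap the others here, while it did on the scale of levels. Since all 4 newborn ductus arrays had a limit under 1.5, this measure does not part the group from the detection limit. SELP probe 1 stood at 55.2 to 73.6 against 24.3 to 47.1, and probe 2 at 51.9 to 76.7 against 7.93 to 49.95. ICAM1 stood at 75.6 to 87.1 against 46.1 to 66.3. Newborn ductus replicate 2 was the lowest of its group for SELP probe 1 by this measure too, at 55.2.

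**Figure D3:**
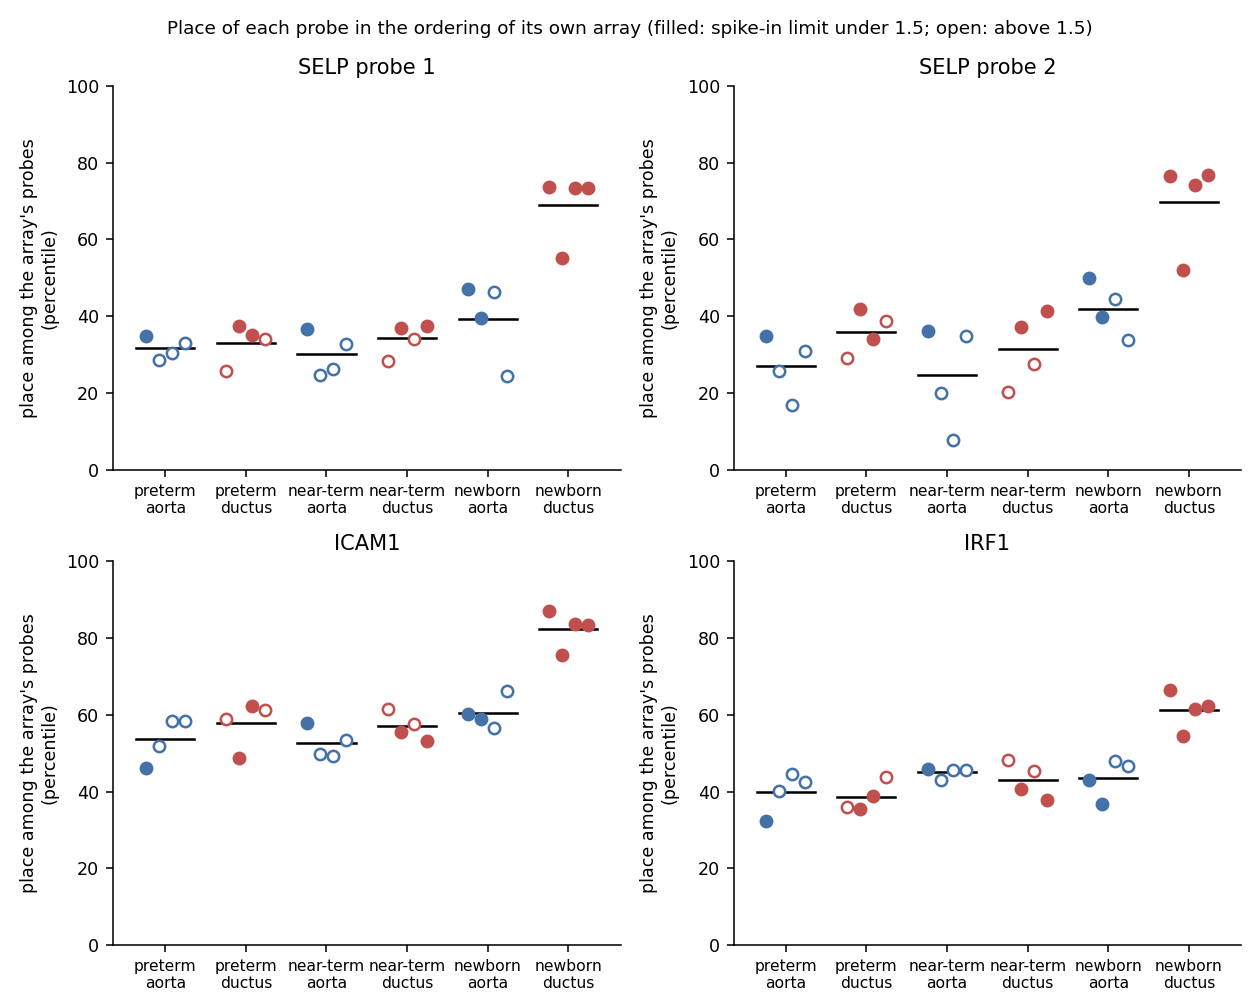
Place of each probe among the probes of its own array (y axis, percentile, 0 to 100) in the 6 groups (x axis), with points, fill and bars as in the plot of levels. All 4 newborn ductus arrays lie above the other 20 arrays for each probe, IRF1 included (54.5 to 66.6 against 32.3 to 48.3).

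Other adhesion genes were compared in the same fit, from a list of 32 genes of leukocyte adhesion of which 9 were tested. In the newborn, VCAM1 and CXCR4 were higher in the ductus, 0 of 9 were lower, and the median difference of the list was 0.19 against −0.28 over all tested probes, of which 5.15% were called as higher and 10.1% in either direction. VCAM1, the endothelial receptor that stands beside ICAM-1, was 11.8-fold higher (3.56 ± 0.93, limma adjusted p = 0.0192). Its newborn ductus arrays fell apart, however, at −0.51, −3.95, −4.00 and −0.84, against −5.37, −7.19, −6.17 and −4.80 in the newborn aorta, where 1 of 4 arrays was above background. Its call ended without newborn ductus replicate 1 or 4 or newborn aorta replicate 3, and with normexp (1.29), among other alternatives. CXCR4, a chemokine receptor of leukocytes that some endothelium also carries, was 3.79-fold higher (1.92 ± 0.32, limma adjusted p = 0.000604), a call that ended with normexp (0.93, adjusted p = 0.0789).

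At birth in the ductus 0 of the 9 adhesion genes passed in limma, where 10.8% of all tested probes did. VCAM1 differed by 1.02 ± 0.93 (adjusted p = 0.441) and CXCR4 by 0.74 ± 0.32 (adjusted p = 0.121). Of the 9, 2 had an unadjusted limma p under 0.05, 1 in each direction, where 4724 of the 13997 tested probes had. In the aorta at birth 0 of 9 passed and 1 had that unadjusted p, where 6.44% of tested probes passed and 2787 of 13997 had it. In the difference between the vessels 0 of 9 passed and 2 had it, against 0.393% and 1079 of 13997. SELE, which encodes E-selectin, the other selectin of endothelium, was well above background on at most 1 of the 24 arrays with either of its 2 probes and was not tested. ITGB2, a subunit of the integrins that bind ICAM-1 and a marker of leukocytes, differed by 0.19 ± 0.24 in the newborn vessels (adjusted p = 0.567). It differed by 0.25 ± 0.24 in the ductus at birth (adjusted p = 0.451).

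Of 10 listed cargo genes of the Weibel-Palade body, in which P-selectin is stored, ANGPT2, EDN1 and CXCL8 were tested and all 3 were higher in the newborn ductus than in the newborn aorta, where 5.15% of all tested probes were. ANGPT2, a ligand of the endothelial receptor TEK, was 4.13-fold higher (2.05 ± 0.55, limma adjusted p = 0.0214), a call that ended without newborn aorta replicate 1 or newborn ductus replicate 3 and with normexp (0.68). EDN1, the precursor of the vasoconstrictor endothelin 1, was 3.33-fold higher (1.74 ± 0.34, adjusted p = 0.00266), a call that ended on arrays with a limit under 1.5 (limma adjusted p = 0.053). EDN1 was also higher in the fetal ductus, by 1.98 ± 0.34 in the preterm and 1.53 ± 0.34 in the near-term vessels (adjusted p = 0.00456 and 0.0262 in limma). The chemokine CXCL8 was 2.60-fold higher (1.38 ± 0.32, adjusted p = 0.00966), a call that ended with quantile normalisation, on arrays with a limit under 1.5 and with the groups compared alone. It rose at birth in both vessels, by 4.46 ± 0.32 in the ductus (21.9-fold, adjusted p = 5.24e-08) and by 2.99 ± 0.32 in the aorta (7.96-fold, adjusted p = 7.53e-05). In the ductus at birth 1 of these 3 genes passed, where 10.8% of all tested probes did.

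Among 15 tested genes of NF-kB signalling and its targets, from a list of 39, 8 were higher and 0 lower in the newborn ductus than aorta, with a median difference of 1.34. Over all tested probes 5.15% were called as higher and the median was −0.28. This list, like the other lists here, was chosen with earlier results of these data known, so its counts are a description. SOD2, the mitochondrial superoxide dismutase, was 5.71-fold higher (2.51 ± 0.28, limma adjusted p = 8.26e-06). NFKBIA, the inhibitor that NF-kB itself induces, was 1.94-fold higher (0.95 ± 0.30, adjusted p = 0.0476), a call that ended under 6 of 11 alternatives and without any 1 of 5 of the 8 newborn arrays. IL6, PTGS2 (cyclooxygenase 2) and IL1A were higher too. IL1A already stood higher in the fetal ductus, at a mean level of −1.30 against −5.38 in the preterm aorta. Near term it was at −1.02 in the ductus against −4.71 in the aorta, and at −0.85 in the newborn ductus. Only 1 of the 2 PTGS2 probes pointed this way, and IL6, above background on 0 newborn aorta arrays, was at least 42.4-fold higher. CXCL8, TLR2 and PTX3 made up the 8. In the ductus at birth, where 4.37% of all tested probes rose and 10.8% changed, 7 of the 15 rose and 0 fell, among them SOD2 (3.26 ± 0.28, adjusted p = 2.63e-07), PTX3 (3.41 ± 0.29, adjusted p = 2.63e-07) and NFKBIA (1.59 ± 0.30, adjusted p = 0.00178). In the aorta CXCL8 alone of the 15 passed, where 6.44% of all tested probes did. The difference between the vessels in the change at birth passed for IL6, PTGS2, SOD2 and PTX3, where 0.393% of all tested probes passed. It was 3.16 ± 0.39 for SOD2 (limma adjusted p = 0.000268) and 2.55 ± 0.41 for PTX3 (adjusted p = 0.00361).

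Of 20 tested genes of interferon signalling and its targets, from a list of 70, CD40 and IL18 were higher and IL15 lower in the newborn ductus than aorta, with a median difference of −0.16. These 3 of 20 stand beside 10.1% of all tested probes called in this contrast, and a median of −0.28 over them. CD40, a receptor of the tumour necrosis factor family found on endothelium and antigen-presenting cells, was 4.31-fold higher (2.11 ± 0.48, limma adjusted p = 0.00902) and rose 4.00-fold in the ductus at birth (2.00 ± 0.48, adjusted p = 0.0114). The cytokine genes IL18 and IL15 differed by 1.74 ± 0.37 (adjusted p = 0.00484) and −2.23 ± 0.39 (adjusted p = 0.00106), and 2 of the 3 IL18 probes pointed the same way. IL15 already stood lower in the fetal ductus, at a mean level of −4.93 against −3.69 in the preterm aorta. Near term it was at −4.87 in the ductus against −3.34 in the aorta. At both fetal stages 0 of the 20 were called, where 0.707% and 1.15% of tested probes were. In the newborn contrast the IL15 call was lost with normexp (−0.72) and 3 other alternatives, and those of CD40 and IL18 with 2 each. IFNAR1, a subunit of the type I interferon receptor, rose at birth in the ductus (0.80 ± 0.22, adjusted p = 0.0266) and in the aorta (0.93 ± 0.22, adjusted p = 0.0173), with each call lost under several alternatives. IFNG, ISG15 and MX1 were chosen after their values were seen. IFNG, which encodes interferon gamma, was above background on 0 of 4 newborn ductus and 2 of 4 newborn aorta arrays. Each fetal group also had it on 2 of 4. The newborn ductus was the only group with 0 arrays with a limit above 1.5, so vessel and detection limit cannot be told apart here. The interferon-induced genes ISG15 and MX1 differed by 0.28 ± 0.54 and 0.48 ± 0.44 in the newborn vessels (adjusted p = 0.724 and 0.448).

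**Figure D4:**
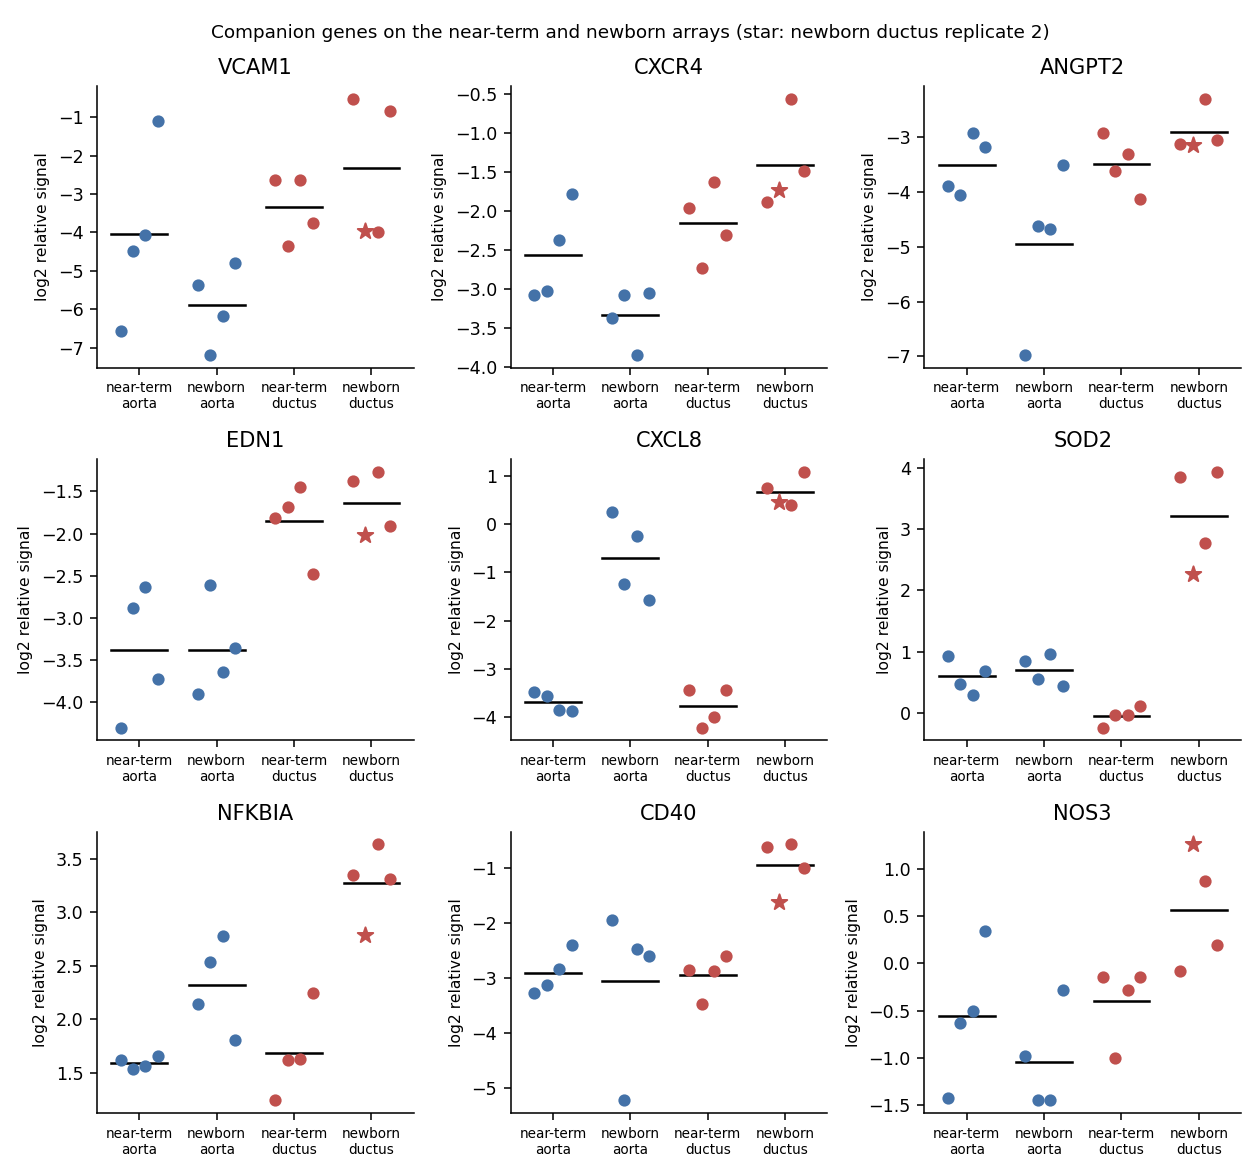
Levels of 9 companion genes (y axis, log2 signal minus the array's 75th percentile) on the near-term and newborn arrays (x axis, blue aorta, red ductus), with each point an array, each bar a group mean and the star newborn ductus replicate 2. The star is the lowest newborn ductus array for SOD2 (2.27), NFKBIA (2.79) and CD40 (−1.61) and the highest for NOS3 (1.26).

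Newborn ductus replicate 2, lowest of its group for all 4 probes of SELP, ICAM1 and IRF1, was also lowest for 11 of the 15 NF-kB genes. Over all tested probes it was lowest for 28.7%, and over the 612 probes that rose in the ductus at birth for 36.8%. SOD2 stood at 3.85, 2.27, 2.77 and 3.95 on replicates 1 to 4. Of the 5 endothelial markers it was lowest for 2, and NOS3, the endothelial nitric oxide synthase, was highest on it, at −0.08, 1.26, 0.87 and 0.19 over the 4 arrays. It was lowest for 9 of the 20 interferon genes. This pattern was noticed in these data and its source was not tested.

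Markers of other cells moved with these contrasts as follows. Over all tested probes 10.1% were called in the newborn contrast, 10.8% at birth in the ductus and 6.44% at birth in the aorta. Of the 5 endothelial markers, NOS3 was higher in the newborn ductus than aorta (1.60 ± 0.35, limma adjusted p = 0.00589), while KDR (0.47 ± 0.25, adjusted p = 0.219), TEK and TIE1 did not pass and FLT1 was above background on 0 newborn ductus arrays. The summed linear level of these 5 ran from 1.31 to 2.66 in the newborn ductus, from 0.553 to 1.43 in the newborn aorta and from 0.793 to 1.59 in the near-term ductus. NOS3 was the largest term of this sum, with a mean log2 level of 0.56 in the newborn ductus. There KDR was at −2.94, TIE1 at −3.26, TEK at −3.60 and FLT1 at −7.22. At birth 0 of the 5 passed in the ductus. Of the 5, 2 had an unadjusted limma p under 0.05, 1 in each direction (NOS3 0.96 ± 0.35, KDR −0.62 ± 0.25), where 4724 of 13997 tested probes had. KDR fell in the aorta (−0.93 ± 0.25, limma adjusted p = 0.0333), a call lost without any 1 of 6 of the 8 arrays. Of 4 monocyte and macrophage markers CD86 was higher in the newborn ductus than aorta (1.38 ± 0.34, adjusted p = 0.0138, lost without newborn ductus replicate 1), and CD14 rose at birth in both vessels (1.51 ± 0.21 and 1.07 ± 0.21, adjusted p = 8.09e-05 and 0.00456). The sum over these markers was 1.16 to 1.53 in the newborn ductus and 0.756 to 1.27 in the newborn aorta, with CD14 the largest term. Of 7 lymphocyte markers CXCR4 was higher in the newborn ductus, 4 were above background on 0 of its arrays, and the sum was 0.404 to 0.832 against 0.193 to 0.998 in the newborn aorta. CD4, CD28 and FLT1 were each above background on 2 arrays of the newborn aorta, the near-term ductus and the preterm ductus. Each of these groups had 2 arrays with a limit above 1.5, and the newborn ductus had 0. Absence of such dim markers in the newborn ductus thus cannot be told apart from the detection limit.

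Of 4 neutrophil markers the granule peptide genes CATHL1B (−3.75 ± 1.08, limma adjusted p = 0.031) and BAC5 (−3.46 ± 1.08, adjusted p = 0.0467) were lower in the newborn ductus, with sums of 0.0277 to 0.211 against 0.274 to 0.903. Both were above background on 1 of 4 newborn ductus arrays, so the sizes of these differences are uncertain. Both calls ended under 5 or more of 11 alternatives. Near term the median difference of the 4 neutrophil markers was already −2.89, with 0 called. Of them 3 were lower at an unadjusted limma p under 0.05, where 1102 of 13997 tested probes had such a p. The single platelet marker tested, ITGB3, was above background on 0 newborn ductus, 0 preterm ductus and 1 newborn aorta array. ITGA2B, PF4 and the leukocyte marker PTPRC were not named on the array. Among fibroblast markers DCN (1.31 ± 0.25, adjusted p = 0.00265) and C3 (2.63 ± 0.39, adjusted p = 0.000239) were higher in the newborn ductus than aorta. The collagen genes COL1A1 (−0.44 ± 0.31, adjusted p = 0.321) and COL3A1 (−0.75 ± 0.49, adjusted p = 0.286) and FBLN1 (0.65 ± 0.24, adjusted p = 0.0904) did not pass. The sums over the 5 genes were 49.3 to 77.9 against 16.1 to 33.4, with DCN the largest term. In the fetus the sums were also higher in the ductus, at 70.2 to 89.3 against 46.1 to 67.7 in the preterm vessels. Near term they were 57.4 to 82.2 against 26.6 to 46.1. C3, a complement gene that other cells also express, rose in the ductus at birth (1.40 ± 0.39, adjusted p = 0.0269), a call lost without any 1 of 6 of the 8 arrays. In the aorta at birth FBLN1 fell (−1.35 ± 0.24, adjusted p = 0.00292) and the smooth muscle marker CNN1 rose (0.83 ± 0.21, adjusted p = 0.0264), the latter call lost without any 1 of 5 of the 8 arrays. The part of these cells in the levels of SELP, ICAM1 and IRF1 was not tested.

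The pattern of each gene over the 6 groups was set against those of the other 630 named genes by the root mean square difference of centred group means, as a description. CHI3L1, a secreted chitinase-like protein, was most like SELP (0.18 on the log2 scale), followed by SOD2 (0.25), ICAM1 (0.33), TIMP1 (0.38) and IGFBP3 (0.42), where the median over named genes was 1.45. TIMP1, an inhibitor of matrix metalloproteinases, was most like ICAM1 (0.10), followed by IGFBP3 (0.20), MCL1 (0.21), ZFP36 (0.31) and SELP (0.33), against a median of 1.21. RCAN1, an inhibitor of calcineurin, was most like IRF1 (0.23), followed by IL1RN (0.28), FAS (0.30), NOG (0.31) and CD86 (0.34), against a median of 0.99. The lists of SELP and ICAM1 shared TIMP1 and IGFBP3, and that of IRF1 shared no gene with either. IRF1 lay 0.58 from SELP and 0.50 from ICAM1. The group means were not scaled, so these distances hold the size of a gene's range as well as its shape. That range was 3.67 for SELP, 2.82 for ICAM1 and 2.43 for IRF1.

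**Figure D5:**
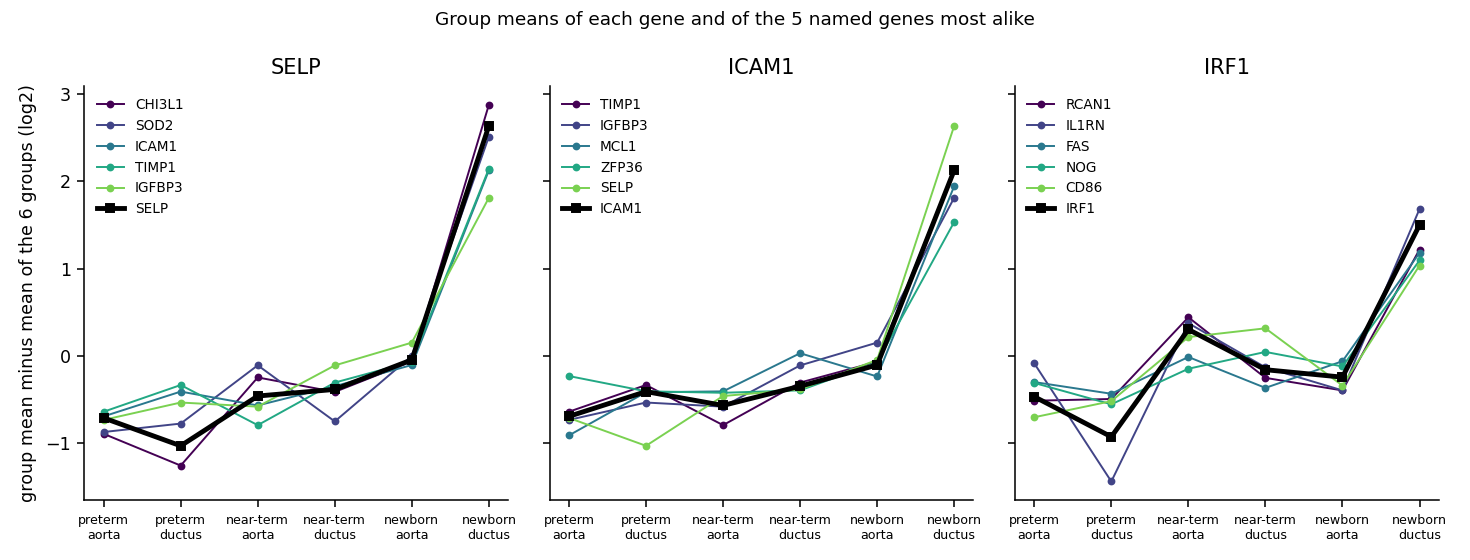
Group means minus the mean of the 6 groups (y axis, log2) over the 6 groups (x axis) for SELP, ICAM1 and IRF1 (black squares) and the 5 named genes most like each (coloured circles). SELP and ICAM1 and their companions stand higher in the newborn ductus than in the other 5 groups, as do IRF1 and its companions.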

How the data were processed

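RNA of 24 sheep vessel samples was labelled with Cy3 and hybridised 1 sample per array, per the labels. The authors deposited linear spot intensity values, from which Agilent Feature Extraction (version 9.5.3.1, with the protocol named GE1-v5_95_Feb07) had subtracted background and a spatial trend, per the file headers. After removal of control spots and outlier spots (2 to 124 on an array), the log2 intensity was set relative to the array's 75th percentile, and spots of 1 probe were averaged. Probes well above background on at least 4 of 24 arrays (13997) were fitted together with limma 3.58.1 in R 4.3.3 (means of the 6 groups, two-sided tests, Benjamini-Hochberg within a comparison, calls at 0.05). Folds are 2 to the power of log2 differences, with standard errors of the fit after ±. Symbols came from the array's names and from RefSeq names of sheep assembly ARS-UI_Ramb_v3.0 (1157 probes, 662 symbols). The other probes are unnamed here. Where several probes named a gene, its brightest stands for it, except that both SELP probes are given.

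The members, lists and comparisons were chosen with earlier results of these data known. Named companions were the called genes of each list, at most 4 by smallest p in each direction, and a set of defining genes. The 5 most alike genes were named by the root mean square rule. The fit was tested on simulated data. Among 276 pairs of arrays 0 were identical. No sequence of these probes is used here. Alternatives were background correction (normexp, offset 50), quantile and median scaling, 2 filters, kept outlier spots, array weights, the groups compared alone, the detection limit, the replicate block and leaving out each array. The class of arrays with a limit above 1.5 alone was added after seeing the data. Ages are those of the source labels, which differ from the day numbers in the titles.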

Additional observations from a re-analysis of the deposited data

Results flagged for a closer look

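Single arrays stood far from the other 3 of their group in 14 of 179 gene-by-group sets, where chance gives 8.95 if the sets were independent. The SELP, ICAM1 and IRF1 probes held 4 of them, 2 of which are the same array seen by both SELP probes. Newborn ductus replicate 2 was low for SELP with probe 1 (−1.97) and probe 2 (−2.33). Preterm ductus replicate 2 was low for ICAM1 (−2.69) and preterm aorta replicate 1 was low for IRF1 (−4.62), both with a detection limit under 1.5.

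Among companion and marker genes the low arrays were near-term ductus replicate 2 for NOS3 (−1.01), preterm ductus replicate 4 for NFKBIA (−0.31), near-term ductus replicate 3 for PTGS2 (−2.25), preterm aorta replicate 1 for IL1A (−7.21), near-term aorta replicate 1 for CD86 (−3.92), near-term aorta replicate 3 for BAC5 (−3.40) and near-term ductus replicate 1 for CNN1 (5.73). The high ones were newborn ductus replicate 3 for ANGPT2 (−2.29), newborn ductus replicate 1 for BAC5 (−3.88) and near-term aorta replicate 2 for PTX3 (−1.19).

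The change at birth differed between the vessels in the limma fit by 2.61 for SELP probe 1, 3.42 for PTGS2, 5.85 for IL6, 3.16 for SOD2 and 2.55 for PTX3, each a ductus minus aorta difference on the log2 scale. The SELP difference uses values by which the gene was chosen and is a description.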

How the results depend on the processing

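Of 990 recomputed values 861 stayed within the replicate spread or within 1.5 times the reported count, 129 moved and 0 of the called values changed sign. Of 660 recomputed differences of the 3 genes 22 moved. Other scalings shifted the median of all probes by up to 0.31, the shift of median centring for the change at birth in the ductus, against which a SELP difference of 3.02 became 3.33. Among arrays with a limit under 1.5 the preterm aorta and the near-term aorta had 1 array each. Differences in that class that use these groups thus rest on single arrays. The differences that moved there were 1.03 for ICAM1 and 0.42 for IRF1 in the preterm vessels and −0.45 for ICAM1 near term. In the newborn IRF1 moved to 2.58. At birth in the ductus SELP probe 1 moved to 3.59 and IRF1 to 2.59. In aorta maturation, 1 array against 1, ICAM1 moved to 1.36 and IRF1 to 1.73. Between the vessels at birth SELP probe 1 moved to 3.18, ICAM1 to 2.89 and IRF1 to 3.61. With normexp SELP probe 1 moved to 1.86 in the newborn, 1.58 at birth in the ductus and 1.70 between the vessels, and IRF1 to 0.54 and 1.11 in the latter 2. With quantile normalisation SELP probe 1 gave 0.98 and probe 2 1.83 at birth in the aorta, where normexp gave 0.15 for probe 2. The cause was not tested.

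The IRF1 call in the newborn was also lost with no filter on dim probes and with the groups compared alone (adjusted p = 0.0531 and 0.116 in limma), and the SELP probe 2 call on arrays with a limit under 1.5 and with the groups compared alone (0.0576 and 0.0734).

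Counts of companion genes called were 3 in preterm vessels (15 with array weights, 0 with a limit above 1.5), 2 near term (1 with normexp, 0 with a limit above 1.5, 1 with the groups alone) and 15 in the newborn (9 with normexp, 9 with a limit under 1.5, 7 with the groups alone). They were 0 in ductus maturation (12 with array weights) and 9 at birth in the ductus (16 with normexp, 20 with weights). In aorta maturation they were 0 (1 with the group filter, 4 with weights, 1 with the limit as a term). At birth in the aorta they were 2 (4 with quantile, 1 with median centring, 4 with weights, 5 and 1 with a limit under and above 1.5, 0 with the groups alone). Without 1 array they ran from 0 to 2 near term, 0 to 1 in ductus maturation and 1 to 3 at birth in the aorta. Probes called over the array in the newborn contrast numbered 1416 (371 to 2354 over alternatives) and at birth in the ductus 1515 (614 to 6882), of which 612 were higher, against 667 higher and 4292 lower with normexp.

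With the replicate number within a stage, which is the slide row, as a block, SELP probe 2 became called between the vessels at birth (2.12 ± 0.37), and no other call of the 3 genes changed. The block was a fixed effect in the ductus minus aorta contrasts, this one included. In the contrasts of stages it was a shared correlation of arrays (consensus 0.178). Same-numbered ductus and aorta samples correlated from −0.585 to 0.482 in the preterm, −0.580 to 0.820 near term and −0.036 to 0.192 in the newborn, so at no stage was every pair over 0.1 and the numbers were not taken to pair the samples. Newborn pairs 1, 2 and 3 each correlated best with their own number (0.192, 0.149 and 0.154) and pair 4 did not, a hint from the data and not from the design.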
